A study of Danio rerio with 6 samples.

Results

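The genes described here were read in every thymus library of one zebrafish genotype and were at or near 0 in every library of the other. They were chosen by the raw counts of the same comparison that they describe. An id (an Ensembl gene identifier) was taken where every library of one genotype held at least 100 counts and every library of the other held at most 3, and ids whose symbol starts with mhc or psmb were left out. Of 32520 ids, 36 met this rule, of which 35 were seen in wild-type thymi and 1 in mutant thymi. Whole thymi were compared between foxn1+/+ fish and foxn1-/- fish, whose foxn1 gene carries an internal deletion. All fish were adults of 3 months, of unspecified sex, and both genotypes carried the ikzf1:EGFP reporter. Each library was made from polyA RNA pooled from 3 fish, and 3 such libraries were sequenced per genotype, so that the spread given below is that between pools.

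Foxn1 is the transcription factor that makes thymic epithelial cells able to attract T cell progenitors and to support their maturation. Alongside this canonical epithelium, the thymus medulla holds mimetic cells that express genes of peripheral tissues such as gut, liver, muscle or ciliated epithelium. Many zebrafish genes exist as duplicates from an ancient genome duplication, marked a and b, and immune gene families further expanded by local copying, which is marked by running numbers. The copies present on a chromosome can vary between laboratory strains in such families. In these whole-tissue libraries, fewer cells of a type and less RNA per cell cannot be told apart. Likewise, counts alone do not tell a transcript that was not made from one whose sequence differed in the family of fish that carried the mutation, and the family background was not tested.

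The libraries held between 31989159 and 42198532 counts. CPM scale the counts to a common library size by the TMM method, and 3 counts then correspond to between 0.0623 and 0.0874 CPM. This floor covers counting error only. The targeted gene foxn1 was still read in mutants, with 114, 129 and 66 counts beside 495, 375 and 349 in wild types (log2 fold change -1.79, adjusted p = 0.00079 by the quasi-likelihood test of edgeR), and is thus no member itself. RAG1, which cuts antigen receptor genes in developing lymphocytes, kept 11126, 11697 and 3375 counts in mutants beside 252186, 157100 and 226328 in wild types, so that lymphoid transcripts were still read in every mutant library. Other tissues took different shares of the genotypes. The summed level of contractile muscle genes was 12900 to 32600 CPM in wild types and 177000 to 236000 CPM in mutants, and the part of this difference in the all-or-none counts was not tested.

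Among 13671 ids with at least 100 counts in every wild-type library, 0.256% were at or under 3 counts in every mutant library. In the other direction this held for 1 of 14076 ids, or 0.0071%. For comparison, 72.1% of all 23805 tested genes passed the test of the genotype difference (adjusted p under 0.05), with 35.9% lower and 36.2% higher in mutants. Of the ids with at least 100 counts in every wild-type library, 49.7% were lower. All 36 members are among these calls, which follows from how they were chosen. The rule further caught 5 mhc and 2 psmb ids in wild types and none in mutants.

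Of the 35 ids seen in wild types, 13 had no count in any mutant library, 11 had between 1 and 3 counts over all 3 mutant libraries together and 11 had 4 or more, up to 8. Together they held 14576, 11157 and 13286 counts in the wild-type libraries and 32, 22 and 22 counts in the mutant libraries. The gap at the upper limit was not empty. Another 58 ids high in wild types had a highest mutant count between 4 and 10, and 141 had one between 11 and 30. In the other direction these numbers were 3 and 102.

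**Figure D1:**
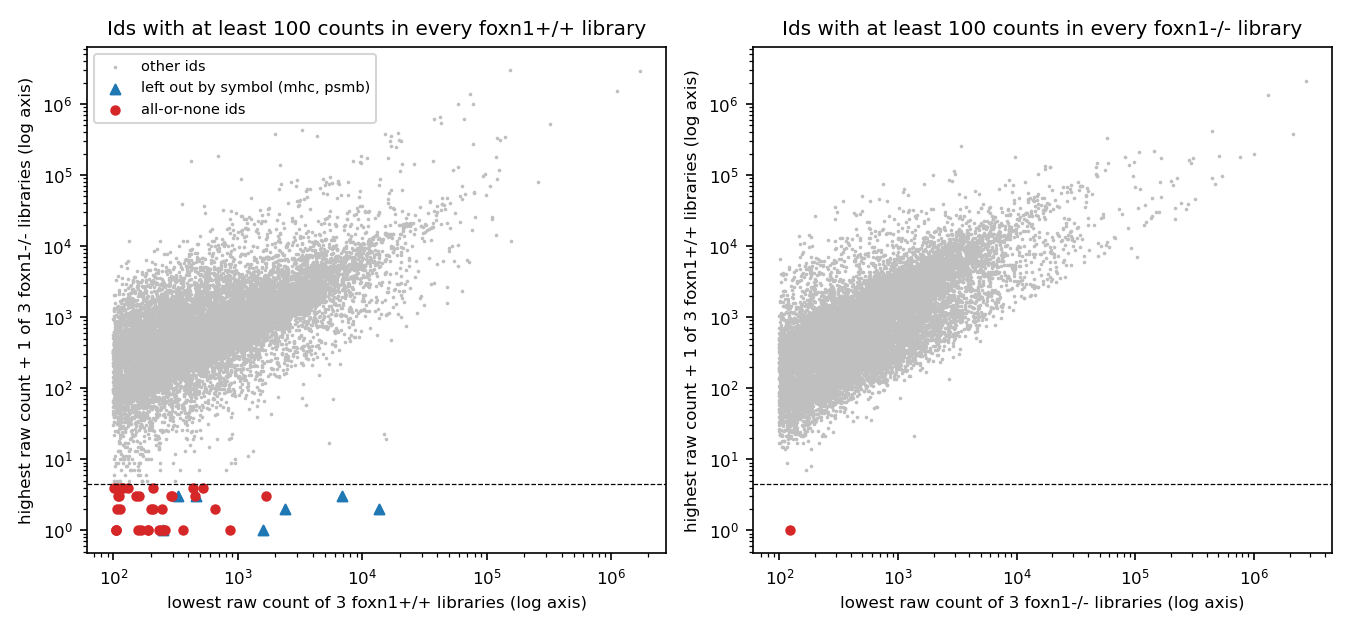
For each id with at least 100 raw counts in every library of one genotype, the lowest count there (x axis, log scale) against the highest count plus 1 in the other genotype (y axis, log scale), for ids high in foxn1+/+ (left) and in foxn1-/- (right). The dashed line marks the limit of 3 counts, under which 35 red points and 7 blue triangles lie on the left and 1 red point on the right.

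The ids just outside the limits in wild types included genes known from intestinal epithelium. Just under 100 counts lay cyp2k18, a cytochrome P450 with 177, 114 and 96 counts in wild types against 1, 0 and 1 in mutants. FABP6, the bile acid binding protein of the ileum in mammals, had 317, 203 and 93 counts in wild types and none in mutants. The claudin cldn15a, a tight junction protein, had 361, 173 and 94 counts in wild types against 0, 1 and 1 in mutants. Its relative cldn15la (168, 120 and 89 counts against 2, 2 and 2) and the anion exchanger slc26a6l2 (154, 93 and 84 against 0, 1 and 0) were the other 2 of the nearest 5. All of these missed the limit in 1 or 2 wild-type pools.

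Just above 3 counts in mutants lay ca4c, a membrane-bound carbonic anhydrase with 525, 361 and 315 counts in wild types against 0, 4 and 0 in mutants. CDH17, the liver-intestine cadherin, had 155, 111 and 116 counts in wild types against 4, 0 and 2 in mutants. The other 3 of the nearest 5 were si:dkey-119g10.5, the unnamed id ENSDARG00000100801 and ftr06, a member of the fish-specific TRIM family, each with a highest mutant count of 4.

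The member with the most counts was foxp3b (ENSDARG00000078279), a duplicate of foxp3a. In mammals FOXP3 is the defining transcription factor of regulatory T cells. foxp3b had 2198, 1708 and 1690 counts in wild types against 2, 2 and 0 in mutants. The wild-type pools were nearly equal after scaling, at 45.4 ± 0.288 CPM (SD, n = 3). Against the level that 3 counts give in the shallowest mutant library, this was at least 519-fold higher. Every such bound below is computed the same way.

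Next in counts were ids that carry only clone or screen names, or none. si:dkey-266f7.4 (ENSDARG00000092728) had 870, 1351 and 1783 counts in wild types and none in mutants, at least 387-fold higher. ENSDARG00000051710, which the name table does not pair with a symbol, had 828, 660 and 819 counts against 1, 0 and 0, at least 216-fold higher. The first varied by 2.63-fold between wild-type pools after scaling and the second by 1.27-fold. zgc:194659 (ENSDARG00000079347) had 764, 360 and 775 counts against none (at least 176-fold higher). si:ch211-167j6.3 (ENSDARG00000095504) had 980, 438 and 518 counts against 1, 1 and 3 (at least 175-fold higher).

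Members with a gene name are grouped here by hand, by what is known of the gene or its family, and not by these data. After foxp3b, the immune-type member with a gene name and the most counts was ifi44a5 (ENSDARG00000092361), of a family induced by interferon. It had 754, 600 and 523 counts in wild types against 1, 3 and 1 in mutants, at least 174-fold higher. PLAC8 (ENSDARG00000043729), named after its human orthologue, encodes a small cysteine-rich protein. Its counts were 766, 496 and 453 in wild types and 2, 0 and 2 in mutants, at least 157-fold higher. lgals9l4 (ENSDARG00000069058) encodes a galectin, a lectin that binds galactose-containing sugars, and had 293, 610 and 645 counts against 2, 0 and 0 (at least 151-fold higher). casp23 (ENSDARG00000014657), a caspase (cysteine proteases of cell death and inflammation), had 159, 165 and 179 counts in wild types and none in mutants, at least 47.5-fold higher. ifi44a5 and PLAC8 varied by 1.14-fold and 1.32-fold between wild-type pools after scaling, while lgals9l4 was lower in replicate 1 and varied by 2.83-fold.

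A second group carries names of genes known from gut or liver. apoa4b.2 (ENSDARG00000020866), an apolipoprotein of intestinal fat transport and the only member in the list of enterohepatic genes, had 429, 298 and 243 counts in wild types and none in mutants. Its level was 7.77 ± 1.22 CPM (SD, n = 3), at least 88.9-fold higher. gpa33b (ENSDARG00000040898), whose mammalian orthologue A33 lies on intestinal epithelial cells, had 121, 120 and 137 counts against 3, 0 and 0. asgr1a (ENSDARG00000095963), of the family of the liver's asialoglycoprotein receptor, had 187, 106 and 158 counts against 2, 3 and 3, which is the highest mutant total of any member. The genotypes were far apart for each, but gpa33b and asgr1a lay close to the lower limit, and their bounds were 35.7-fold and 41.6-fold.

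The next members with a gene name were placed in neither group. The galectin lgals2b (ENSDARG00000038153) had 257, 230 and 162 counts in wild types against 1, 0 and 2 in mutants. SLC5A11 (ENSDARG00000019932), a sodium-coupled transporter of myo-inositol, had 107, 224 and 276 counts against 1, 1 and 0. afp4 (ENSDARG00000095863), named after the antifreeze proteins of type IV, had 177, 155 and 108 counts against 0, 2 and 1. Of these, SLC5A11 was the least even of all 35 ids between wild-type pools, with the highest at 3.31 times the lowest. jac3 (ENSDARG00000098097), of a family of jacalin-type lectins, had 188, 131 and 131 counts against 2, 1 and 3, and varied by 1.12-fold between wild-type pools.

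The remaining 2 members with a gene name were also placed in neither group. plscr3a (ENSDARG00000093078), a phospholipid scramblase, had 148, 111 and 102 counts in wild types against 1, 3 and 1 in mutants. zp2l2 (ENSDARG00000004898), of the zona pellucida proteins that build the egg coat, had 219, 104 and 146 counts in wild types and none in mutants. Among the list of germ cell and egg protein genes, 8 of 14 tested were lower and 3 higher in mutants, beside 35.9% lower and 36.2% higher over all tested genes. Of the lower genes, vtg4 (74, 64 and 65 counts in wild types) and vtg7 (55, 23 and 38 counts), yolk protein precursors made by the liver of females, were at 0 in all mutant libraries. The 3 higher genes were DMRT1, gsdf and amh, which are known from the testis, with log2 fold changes of 1.71, 1.89 and 1.45 (adjusted p = 0.0073, 0.00047 and 0.012, edgeR). The sex of the pooled fish is not given, and its part in zp2l2 was not tested.

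Of the 35 ids, 14 carried a gene name, 16 a clone or screen name and 5 no symbol. Missing symbols thus made up 14.3% of the members, beside 3.51% of all 13671 ids with at least 100 counts in every wild-type library, and clone or screen names made up 45.7%, beside 1385 of the 13671. Separately, 20 families were defined by the start of the symbol, among them NLR receptors, TRIM proteins, chemokines, antigen receptor segments, P450 enzymes and cathepsins. The GTPase and interferon genes held 1 member (ifi44a5) of 43 ids with at least 100 counts in every wild-type library. The solute carriers held 1 (SLC5A11) of 212. A family of uncharacterised clone names, defined separately from the 1385 ids above, held 16 of 1456. The other families held none, of 11 such ids for NLR receptors, 54 for TRIM proteins and 45 for antigen receptor segments. At the overall share of 0.256%, families of these sizes are too small to read anything from 0 or 1 member.

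Among the ids at 0 in every mutant library were zmp:0000000652, with 545, 188 and 399 counts in wild types, and the unnamed ENSDARG00000071629, with 419, 167 and 357. Both were lowest in wild-type replicate 2. ENSDARG00000114661 (232, 277 and 379 counts), si:dkey-9c18.3 (270, 257 and 306), si:dkey-30g5.2 (258, 269 and 295) and ENSDARG00000040497 (188, 192 and 214) were also at 0 in all mutants and were highest in wild-type replicate 3. si:ch211-12h2.8 (142, 154 and 104) and zgc:172090 (121, 119 and 105) were at 0 in all mutants too, and both were highest in wild-type replicate 2 after scaling.

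Single reads in mutants were found for the others. si:ch211-59h6.1 had 758, 295 and 594 counts in wild types against 1, 1 and 2 in mutants, and si:ch211-187g4.1 had 396, 207 and 324 against 3, 0 and 1. ENSDARG00000052899 (321, 262 and 244 against 0, 0 and 1) and si:ch211-77g15.32 (246, 201 and 201 against 0, 1 and 0) were among the most even of all, varying by 1.07-fold and 1.05-fold between wild-type pools. The latter is listed as a long noncoding RNA in RefSeq. ENSDARG00000096978, which has a clone name, had 1 count in each mutant library and 230, 207 and 279 in wild types. The last 4, si:ch211-262i1.4, si:ch211-213a13.5, si:dkey-10f21.16 and si:ch211-132g1.6, had between 110 and 281 counts in wild types and at most 3 in mutants.

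**Figure D2:**
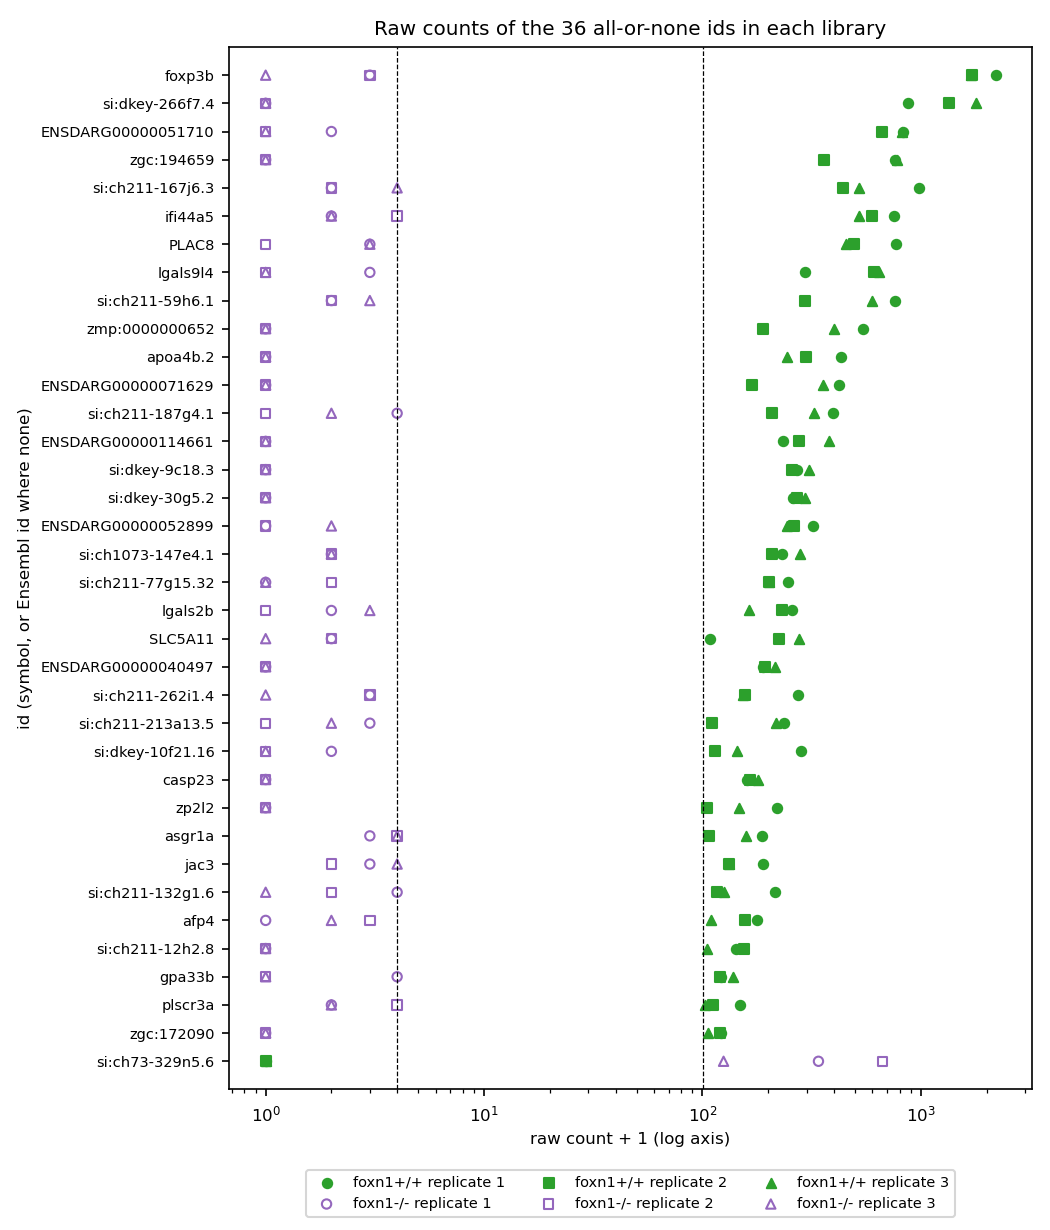
Raw count plus 1 (x axis, log scale) of each of the 36 ids (y axis) in the 3 foxn1+/+ libraries (filled green) and the 3 foxn1-/- libraries (open purple), with one symbol shape per replicate number and dashed lines at the limits of 3 and 100 counts. foxp3b stands at the top with 1690 to 2198 wild-type counts, and si:ch73-329n5.6 at the bottom is the only id with its counts in mutants.

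The lower-bound folds of the 35 ids ranged from 32.3 to 519, with a median of 67.5. From the lowest wild-type pool in place of the mean, the range was 25.4 to 516. These bounds follow the wild-type CPM, which had a median of 5.9 CPM, and do not order the ids by how strongly they differ. The 47 matched thymocyte and T cell ids summed to 15800 to 20000 CPM in wild types and 1340 to 1840 CPM in mutants. The ratio of means was 11.1. All 35 bounds lie above this ratio because the rule sets a minimum for each, so no comparison can be drawn. In the wild-type sum, RAG1 alone made up 5150 of 18300 CPM. Single genes of this list fell further, such as THEMIS, ZAP70 and foxp3a (log2 fold changes of -5.49, -5.39 and -5.41), while 9 of 47 were higher in mutants. The 9 include cd79a, which the list of B cell genes also holds. RAG1 and RAG2 fell by 4.40 and 4.54 on the log2 scale (adjusted p = 0.00033 and 0.00011, edgeR). Ids matched by symbol to the thymic epithelial list summed to 1790 to 2140 CPM in wild types. In mutants they summed to 3030 to 3860 CPM. The most abundant in mutants were ccl25b and krt8. ccl25a had the highest wild-type mean and fell from 310 ± 163 to 53.5 ± 6.59 CPM (SD, n = 3 each). Its wild-type counts were 23977, 7973 and 8215, so that replicate 1 raised this mean. The wild-type mean of ccl25b was close to it, at 301 ± 71.6 CPM (SD, n = 3). aire, the regulator of peripheral tissue genes in the medulla, fell from 251, 171 and 188 counts to 4, 4 and 2 (adjusted p = 2.6e-05, edgeR).

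The lists of thymic epithelium and of thymocytes and T cells do not hold any of the 36 ids, and the latter list holds foxp3a but was written without foxp3b. These lists held 29 and 42 ids with at least 100 counts in every wild-type library, few beside a share of 0.256% over all such ids. Of 47 ids tested from the thymocyte and T cell list, 34 were lower and 9 higher in mutants. Of 36 ids tested from the thymic epithelial list, 11 were lower and 20 higher. The medians of the log2 fold change in these lists were -3.31 and 0.88, beside 0.02 for all tested genes. Ids were matched by symbol alone, and the higher epithelial ids include DLD, whose symbol is also that of a general metabolic enzyme. They also include krt8, krt18a.1 and TP63, which are not confined to thymic epithelium, while foxn1, aire and ccl25a were lower. Of 46 tested enterohepatic genes, 25 were lower and 9 higher, with a median of -1.16. In this list several genes besides apoa4b.2 stood close to the floor in mutants. apobb.1, the apolipoprotein B of lipoprotein particles, had 2066, 1320 and 1756 counts in wild types against 7, 12 and 1 in mutants. chia.1, a chitinase of the gut, had 155, 112 and 61 counts against 0, 1 and 0, and HNF4A, the regulator of intestinal and liver genes, had 378, 238 and 310 against 3, 6 and 3. The summed level of the list went the other way, at 452 to 922 CPM in wild types and 957 to 2120 CPM in mutants, with fabp1b.2 and RBP4 as its most abundant genes.

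The members were uneven between the wild-type pools. The highest pool exceeded the lowest by a median of 1.46-fold, beside 1.24-fold over the 10268 ids within the members' range of mean CPM. In 8 of 35 members the difference was over 2-fold, where 6.53% of those ids had one. This spread was not used by the rule, although the rule asks for a minimum in each pool. Within the range, the ids were not matched to the members by level, and the part of counting error was not tested.

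The uneven members can be listed by the pool in which they were low. Relative to the mean of the id, wild-type replicate 1 was under 0.7 in 4 ids: SLC5A11 (0.429), lgals9l4 (0.462), si:dkey-266f7.4 (0.534) and ENSDARG00000114661 (0.649). Wild-type replicate 2 was under 0.7 in 5 ids: zmp:0000000652 (0.556), ENSDARG00000071629 (0.587), si:ch211-59h6.1 (0.596), zgc:194659 (0.622) and si:ch211-213a13.5 (0.645). No member was that low in replicate 3. Over the 10268 ids within the members' range of mean CPM, 5.36%, 1.68% and 1.59% were that low in replicates 1, 2 and 3. The summed thymocyte genes were at 1.04, 0.864 and 1.09 of their mean in these 3 pools, a smaller spread. Connective tissue, cartilage and bone genes were at 0.349, 1.44 and 1.21 of their mean, and skin genes at 0.691, 1.71 and 0.603. Whether tissue makeup had a part in the uneven members was not tested.

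mhc1uba, an MHC class I gene left out by the rule, had 465, 953 and 1164 counts in wild types against 2, 2 and 0 in mutants. Like the 4 ids above it was lowest in wild-type replicate 1, at 22 ± 11.1 CPM (SD, n = 3). Over the 10268 ids within the members' range of mean CPM, 36.3% were lowest in this pool, and 5.36% were, like mhc1uba, under 0.7 of their mean there.

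**Figure D3:**
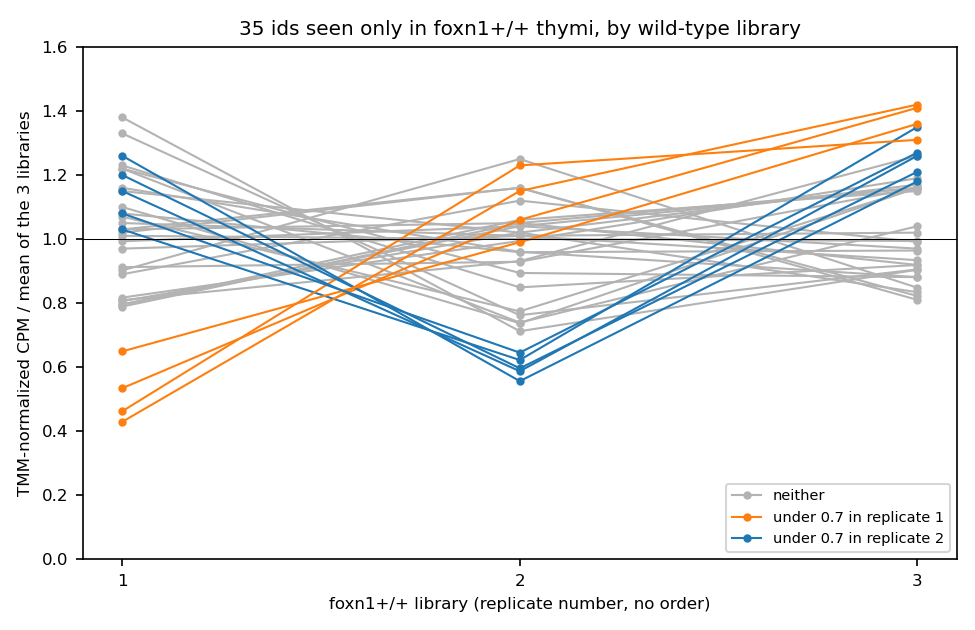
TMM-normalized CPM of each of the 35 ids in the 3 foxn1+/+ libraries (x axis, replicates without order), divided by the mean of these libraries (y axis). The 4 orange lines are ids under 0.7 in replicate 1, the 5 blue lines ids under 0.7 in replicate 2, and grey lines all others, which include foxp3b at 0.994 to 1.01.

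For 12 stems of gene names, other ids share the stem of a member, and these relatives were taken by name only, after the members were known. Of 40 such ids, 15 were lower and 9 higher in mutants, 12 did not pass the test and 4 were too low to test, beside 35.9% lower and 36.2% higher among all tested genes. foxp3a (ENSDARG00000055750) had 1656, 1416 and 1535 counts in wild types. It kept 32, 38 and 26 counts in mutants and fell by 5.41 on the log2 scale (adjusted p = 1.5e-05, edgeR). With the 2.35% of its wild-type level that foxp3a kept, foxp3b would have had 116 counts over the mutant libraries, where 4 were read. In raw counts, not corrected for length, foxp3b stood at 1.33, 1.21 and 1.1 times the counts of foxp3a in wild types and at 0.0625, 0.0526 and 0 times in mutants. Both comparisons follow from the rule, which allows foxp3b at most 3 counts in each mutant library.

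All 3 relatives of apoa4b.2 were lower in mutants, to different degrees. apoa4b.1 had 1615, 1457 and 1217 counts in wild types against 2, 10 and 9 in mutants, a log2 fold change of -7.48 (adjusted p = 2.2e-05, edgeR). apoa4b.3 had 161, 123 and 58 counts against 0, 1 and 1 (at least 31.1-fold higher in wild types). With the 0.543% that apoa4b.1 kept, apoa4b.2 would have had 4.59 counts over the mutant libraries, where none was read. At this depth the floor thus separates apoa4b.2 from apoa4b.1 by little. apoa4a, with 22, 23 and 20 counts against 6, 0 and 2 (adjusted p = 0.011, edgeR), kept 14.3%, at which apoa4b.2 would have had 121 counts. This gap follows from the rule by which apoa4b.2 was chosen. Among the jacalin-type genes, jac2 (397, 313 and 336 counts against 6, 11 and 5) and jac4 (103, 181 and 68 against 5, 4 and 6) were also lower, while jac7 and jac11 did not pass the test (adjusted p = 0.90 and 0.76, edgeR). A second id with the symbol PLAC8 had 86, 60 and 51 counts in wild types and none in mutants, while PLAC8L1 was higher in mutants, with 28, 26 and 23 counts against 65, 86 and 150 (adjusted p = 0.0012, edgeR).

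For plscr3a, gpa33b and lgals2b, the only relative by name was not lower in mutants. plscr3b had 2944, 2578 and 2659 counts in wild types against 3121, 3065 and 3577 in mutants, and rose by 0.42 on the log2 scale (adjusted p = 0.0099, edgeR). gpa33a rose by 1.53 (adjusted p = 0.0012, edgeR) from 1324, 1396 and 823 to 3517, 2397 and 3111 counts, and lgals2a by 1.92 (adjusted p = 8.7e-05, edgeR) from 1236, 1442 and 1296 to 3996, 4947 and 4564 counts. Each of these relatives had more counts in wild types than the member of its pair, without a correction for length. The relatives of asgr1a were split. asgr1b did not pass the test, with 330, 245 and 344 counts against 259, 302 and 221 (adjusted p = 0.79, edgeR), nor did asgr1c.1 (adjusted p = 0.15, edgeR). asgr1c.2 was lower, with 44, 8 and 35 counts against none (adjusted p = 0.0046, edgeR), and asgrl1 was higher (adjusted p = 0.0088, edgeR).

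Families built by local copying were mixed. Of 13 ifi44 relatives, 4 were lower and 3 higher in mutants, and 6 did not pass the test. ifi44a6 (135, 98 and 97 counts against 3, 10 and 0), ifi44a7 (37, 27 and 21 against none), ifi44a8 (185, 110 and 102 against 12, 38 and 7) and ifi44f5 (102, 16 and 57 against 0, 2 and 1) were lower like ifi44a5. ifi44f1 and ifi44f4 rose by 2.93 and 1.67 on the log2 scale (adjusted p = 0.00037 and 0.00097, edgeR), and ifi44a1 had 251, 200 and 242 counts in wild types against 140, 352 and 106 in mutants (adjusted p = 0.92, edgeR). Of the galectin-9-like genes, lgals9l5 was lower (292, 185 and 246 counts against 3, 4 and 4), lgals9l3 rose by 0.75 (adjusted p = 0.013, edgeR) and lgals9l1 did not pass the test.

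**Figure D4:**
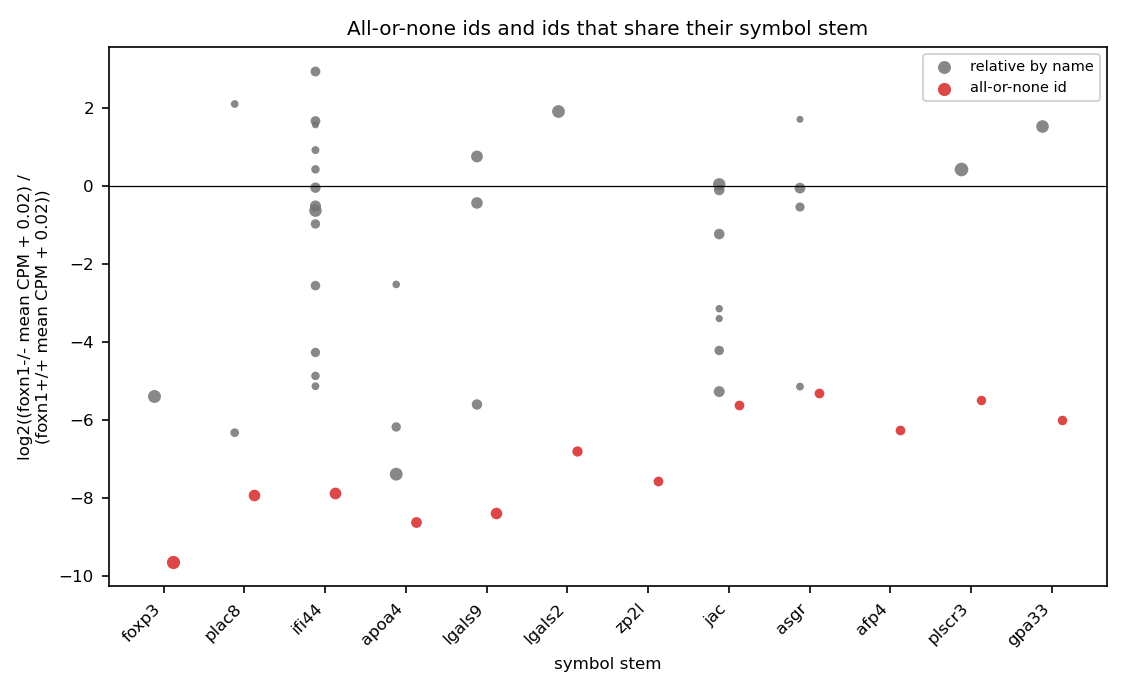
Log2 ratio of mean CPM plus 0.02 in foxn1-/- over foxn1+/+ (y axis) of the all-or-none ids (red) and of tested ids with the same symbol stem (grey), by stem (x axis), with larger points for higher wild-type levels. The pseudocount sets how low the red points lie. Grey points lie far below 0 for foxp3, apoa4 and part of jac and ifi44, and above 0 for lgals2, plscr3 and gpa33.

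A clone name gives the genomic clone an id was first found on, so ids of one clone lie close together. For 8 clones other ids were measured. Of 19 such ids, 8 were lower and 4 higher in mutants, 1 did not pass the test and 6 were too low to test. Of the 4 higher, 2 lie on the clone of si:ch73-329n5.6, the member seen in mutants, and so went the same way as their member. Over all tested genes, 35.9% were lower and 36.2% higher. On the clone of si:ch211-132g1.6 (215, 116 and 125 counts against 3, 1 and 0), si:ch211-132g1.4 fell from 2493, 1463 and 1621 to 64, 68 and 19 counts (adjusted p = 0.00011, edgeR) and si:ch211-132g1.1 from 667, 398 and 362 to 20, 35 and 9 (adjusted p = 0.00017, edgeR). si:ch211-132g1.3 rose by 0.93 on the log2 scale (adjusted p = 0.0017, edgeR). On the clone of si:ch211-213a13.5 (236, 110 and 216 counts against 2, 0 and 1), si:ch211-213a13.2 had 267, 125 and 212 counts against 13, 23 and 13. Both were lowest in wild-type replicate 2, as were 36.8% of ids within the members' range of mean CPM. Both were under 0.7 of their mean in this pool, as were 1.68% of those ids. si:dkey-10f21.4 kept 144, 197 and 133 counts in mutants, where si:dkey-10f21.16 of the same clone had 1, 0 and 0.

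The RefSeq annotation of another assembly, GRCz12tu, was used for neighbours only, since the counts rest on GRCz11 according to the processing notes. By a unique symbol, 21 of the 36 ids could be placed. They lay on 15 chromosomes with at most 2 on any one, and none was within 200 kb of another placed member. The other 15 ids were not placed, so that their distances are not known. Of the 21, 2 (9.52%) shared the chromosome of foxn1, namely lgals9l4 and si:ch211-187g4.1, beside 3.33% of all placed ids with at least 100 counts in every wild-type library. si:dkey-266f7.4 was the only placed member within 1 Mb of mhc1uba.

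Within 200 kb of the placed wild-type members lay 99 other ids with at least 100 counts in every wild-type library. Of these, 52 (52.5%) were lower, 21 higher and 26 did not pass the test, close to the 49.7% lower among all ids with such counts. A mean mutant CPM under 10% of the wild-type mean was found for 13 of them, or 13.1%, beside 3.69% of all. Among the 37 nearest placed neighbours of wild-type members, 19 were lower and 7 higher, 6 did not pass the test and 5 were too low to test. The shares over all tested genes were 35.9% lower and 36.2% higher. hce2l2, a hatching enzyme-like protease beside si:ch211-167j6.3, had 1411, 808 and 833 counts in wild types against 3, 6 and 4 in mutants. nuggc.3, a nuclear GTPase gene beside si:dkey-266f7.4, had 503, 699 and 1063 counts against 19, 15 and 3. nuggc.3 and si:dkey-266f7.4 were both lowest in wild-type replicate 1, as were 36.3% of ids within the members' range of mean CPM. Both were under 0.7 of their mean in this pool, as were 5.36% of those ids. hce2l2 was not lowest in this pool.

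Next to zgc:172090 lay si:dkey-30g5.1, with 17, 21 and 17 counts in wild types and none in mutants, which shares its clone with the member si:dkey-30g5.2. These 3 ids, 2 of them members, were all at 0 in every mutant library. The neighbours of other members were mixed. On one side of apoa4b.2, apoeb rose by 1.89 on the log2 scale (adjusted p = 0.00076, edgeR), and on the other, si:dkey-7f3.14 had 25, 27 and 17 counts in wild types and none in mutants (adjusted p = 0.00069, edgeR). Of the neighbours of casp23, OXA1L did not pass the test (adjusted p = 0.50, edgeR), and zgc:194655 was lower, with 243, 140 and 145 counts against 26, 57 and 21 (adjusted p = 0.002, edgeR). Beside si:ch211-12h2.8, AARS2 did not pass the test (adjusted p = 0.99, edgeR), and si:dkeyp-98a7.4 was too low to test, with 5, 2 and 10 counts against none.

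In mutants, the only id of this kind was si:ch73-329n5.6 (ENSDARG00000103634), with 339, 667 and 124 counts in mutant libraries and none in any wild-type library. Its function is not given by the name. At 10.4 ± 7.33 CPM (SD, n = 3) it was at least 130-fold higher than the floor, but at least 41.4-fold from the lowest mutant library alone. Mutant libraries differed by 5.41-fold, where ids with at least 100 counts in every mutant library had a median of 1.26-fold. The 2 other ids of its clone were also higher in mutants, with log2 fold changes of 1.75 for si:ch73-329n5.1 (adjusted p = 0.0015, edgeR) and 1.53 for si:ch73-329n5.2 (adjusted p = 0.04, edgeR), but both were read in every wild-type library.

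The ids nearest to the limits in mutants were few, and not all of them are named here. npy8br, a receptor of the neuropeptide Y family, had 77, 163 and 125 counts in mutants and 0, 2 and 0 in wild types. nkl.3, an NK-lysin (an antimicrobial peptide of cytotoxic cells), had 186, 290 and 187 counts in mutants and 3, 7 and 5 in wild types. SSTR2, a somatostatin receptor, had 166, 178 and 402 counts against 6, 5 and 5. si:dkey-11o15.8 had 441, 370 and 116 counts against 8, 3 and 7, and was, like si:ch73-329n5.6, lowest in mutant replicate 3.

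Counts near 0 were also found within the wild types. In wild types, 4 ids had at least 100 counts in 2 libraries and at most 3 in the other. nabp1b, a protein that binds single-stranded DNA, had 157, 228 and 1 counts in wild types against 2, 4 and 7 in mutants, so that wild-type replicate 3 was at the mutant level. ifi44b, of the same family as the member ifi44a5, had 220, 147 and 0 counts in wild types against 48, 71 and 36 in mutants. si:dkey-169i5.4 (177, 0 and 312 counts) and si:dkey-108k21.23 (143, 0 and 114) were at 0 in wild-type replicate 2 and were read in every mutant library. These 4 ids were chosen by this split, and its cause was not tested.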

How the data were processed

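Thymus RNA of 6 zebrafish pools (3 per genotype, 3 fish each) was analysed. The authors trimmed reads with Trim Galore 0.4.3.1, aligned them with HISAT2 2.1.0 and counted them with featureCounts 1.6.1.0 (GRCz11 in the processing notes), and deposited raw counts per Ensembl id. The annotation release, the strandedness of counting and the handling of multimappers are not given in the sources used here, so counts of near-identical copies are uncertain. Genotypes and replicate numbers came from the sample titles.

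Ids above 5 counts in 3 or more libraries entered the test, made with TMM and the quasi-likelihood test of edgeR 4.0.16 (R 4.3.3), with Benjamini-Hochberg adjustment at 0.05, and the code was tested on simulated data. DESeq2 1.42.0, voom and treat in limma 3.58.1 and other settings were alternatives. P-values set the genotype difference against the spread between pools. Symbols came from a table that names 29201 of the ids. A bound is the mean CPM over the CPM of 3 counts in the shallowest library of the other genotype. The genes named are all members, the 5 ids nearest to each limit in wild types and some of those in mutants. Relatives and neighbours of members and ids chosen after their values were seen are also named. Members and lists were chosen with earlier results of these data known. No protein or promoter sequences were used here, so the planned comparison of paralogue proteins and promoters was not run, and relatives were taken by symbol in its place. No library was a copy of another (chi-square per degree of freedom between replicates from 36.2 to 113).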

Additional observations from a re-analysis of the deposited data

How the results depend on the processing

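The number of all-or-none ids depends on the limits. For ids seen in wild types, the 35 became 13 with no count allowed in mutants, 93 with up to 10, 76 with at least 50 counts in wild types and 17 with at least 200. Limits applied to counts scaled by TMM or by library totals gave 25 and 39, of which 25 and 34 are among the 35. Leaving out 1 library gave 35 to 50 such ids, the highest without mutant replicate 2. The rule asks for its limits in every library, so leaving 1 out can only keep or add ids. For ids seen in mutants, the 1 became 4 with up to 10 counts in wild types, 2 with at least 50 counts in mutants and 0 with at least 200. Leaving out 1 library gave 1 to 5, namely 5 without wild-type replicate 3, 2 without mutant replicate 1 and 1 otherwise. That si:ch73-329n5.6 was among them each time likewise follows from the rule. All 36 ids were called by each alternative that tested them, and none was tested with at least 10 counts in every library. The bounds moved by -0.43 to 0.46 on the log2 scale with library size alone, and by -0.65 to 0.42 when 1 library was left out. Calls over all genes ranged from 14432 to 17532, and were 15325 to 16704 when 1 library was left out. With the replicate number as a block, 16308 genes and all 36 members were called. Deviations of same-numbered libraries correlated at 0.139, -0.0611 and -0.00895, so the numbers were not taken as pairs. Among the 21 ids that could be placed, the number within 500 kb of another was also 0, which fixes the 0 at 200 and 100 kb. The distances of the ids that could not be placed are not known. The alternatives on protein identity were not run, for want of the sequences used here.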

Other observations

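Of the 7 ids left out by symbol, the 2 psmb ids are catalytic proteasome subunits. In wild types psmb11b had 4019, 2638 and 2407 counts, against 1, 0 and 0 in mutants. The id listed as PSMB11 (ENSDARG00000108530) had 2509, 1597 and 1636 counts against none. Of the 5 mhc ids, the class II genes mhc2dga and mhc2dgb were at 260 ± 68.1 and 522 ± 139 CPM (SD, n = 3 each) in wild types and had at most 2 counts in a mutant library.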
